A study of Mus musculus with 11 samples.

Results

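Mouse embryonic stem cells (ESCs) hold a small set of abundant, folded RNAs that are not translated, and 9 of these were named for examination: Rpph1, Rmrp, Rprl1, Rprl2, Rprl3, Rn7sk, Terc, Rny1 and Rny3. Of the 23284 genes listed in each file, 6 carry one of these symbols (Rpph1, Rmrp, Rprl1, Rprl2, Rprl3 and Terc), and all 6 passed the limit on low values used for testing. Rn7sk, Rny1 and Rny3 are not analysed here. The set was chosen by measured values of the same libraries: the share of library signal taken by Rpph1 and Rmrp, the polyA to ribodepleted difference, and the TKO to WT difference at 0 h were in view. These 3 measures are therefore given as descriptions, with no test.

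The cells were grown on gelatin with serum and leukaemia inhibitory factor. WT cells were compared with Tet1,2,3 triple knock-out (TKO) cells, which lack the dioxygenases that hydroxylate methylated cytosine. Both were sampled untreated (0 h) and following 4 h of exposure to 10 µg/ml α-amanitin, a mushroom toxin that blocks RNA polymerase II, giving 4 groups of 2 ribodepleted total RNA libraries. The remaining group held 3 polyA-selected libraries of WT cells, whose labels name no treatment. The labels name neither the strain of the cells nor separate clones. The study describes the α-amanitin experiment as done in biological duplicate. Whether the 2 libraries of a group came from separate cultures is not further stated. The p-values therefore rest on the spread between libraries of a group. That spread was pooled over the 4 ribodepleted groups and drawn toward that of genes of similar level. The ribodepleted libraries held between 25507874 and 29781366 recovered reads and the polyA libraries between 72639837 and 82129168. The 6 ESC markers examined (Pou5f1, Sox2, Nanog, Zfp42, Esrrb and Klf4) all averaged above 1 TPM and summed to between 1491 and 2891 TPM per library, whereas 6 fibroblast markers summed to between 5.94 and 14.7 TPM and 6 differentiation markers to between 5.20 and 17.9 TPM. The ESC marker sum was lower in the 4 TKO libraries (1491 to 1551 TPM) than in the 4 WT ribodepleted libraries (2063 to 2241 TPM). The fibroblast marker sum was higher in TKO (13.0 to 14.7 TPM) than in WT ribodepleted libraries (8.77 to 11 TPM), and the differentiation marker sums overlapped (5.20 to 7.19 TPM and 5.81 to 8.17 TPM). The part of these differences in the results was not tested.

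As background, RNase P is the ribonucleoprotein that cuts the leader from precursor transfer RNAs, and RNase MRP is its relative that cleaves precursor ribosomal RNA. Rpph1 and Rmrp encode their catalytic RNAs, share most protein partners, and are made by RNA polymerase III from promoters that lie upstream of the gene. Terc encodes the telomerase RNA, whose template is copied into telomeric repeats, and in vertebrates it is made by RNA polymerase II. Rprl1, Rprl2 and Rprl3 are named RNase P RNA-like, and no function is assigned to them here. None of these RNAs ends in a long poly(A) tail in its mature form.

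The RNase P sequences are shown first because bases that differ in the reference genome could tell reads of the look-alikes from reads of Rpph1. No read alignments were examined. In NCBIM37 (the assembly known as mm9), each RNA was located as the entry of its RNA family, or in the case of Rpph1 the only miscellaneous RNA, between the protein-coding genes that flank it in RefSeq. Rpph1 lies at chr14:51427124-51427442 (minus strand) between Ccnb1ip1 and Parp2, with Parp2 179 bases away. Rprl1 lies at chr6:69276838-69277164 (minus strand) in the immunoglobulin kappa variable region, and the nearest annotated gene is Igkv4-68. Rprl2 lies at chr3:22150296-22150585 (plus strand) between Tbl1xr1 and Nlgn1. Rprl3 lies at chr8:3803069-3803358 (minus strand) between Cd209a and Cd209e. These 4 loci overlap no other annotated gene. The part of Rpph1 that the look-alikes share, and the matching part of each look-alike, read as follows from the NCBIM37 genome, 5′ to 3′. Capitals in Rpph1 mark a unit of 21 bases that stands in tandem, and capitals in the look-alikes mark bases that differ from Rpph1.
Rpph1: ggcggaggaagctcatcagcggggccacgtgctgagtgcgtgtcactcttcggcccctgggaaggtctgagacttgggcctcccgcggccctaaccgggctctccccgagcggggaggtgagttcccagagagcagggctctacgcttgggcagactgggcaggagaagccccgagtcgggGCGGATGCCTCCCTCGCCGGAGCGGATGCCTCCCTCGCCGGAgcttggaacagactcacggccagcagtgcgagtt
Rprl1: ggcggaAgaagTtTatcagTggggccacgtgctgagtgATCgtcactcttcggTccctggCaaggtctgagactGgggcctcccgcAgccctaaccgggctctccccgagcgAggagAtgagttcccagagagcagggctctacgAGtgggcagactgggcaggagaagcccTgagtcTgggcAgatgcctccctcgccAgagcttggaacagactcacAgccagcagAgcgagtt
Rprl2: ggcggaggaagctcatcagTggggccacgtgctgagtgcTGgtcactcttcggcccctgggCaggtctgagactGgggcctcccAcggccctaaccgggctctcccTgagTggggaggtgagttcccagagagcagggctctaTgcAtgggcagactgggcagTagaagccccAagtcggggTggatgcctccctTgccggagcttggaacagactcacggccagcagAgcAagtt
Rprl3: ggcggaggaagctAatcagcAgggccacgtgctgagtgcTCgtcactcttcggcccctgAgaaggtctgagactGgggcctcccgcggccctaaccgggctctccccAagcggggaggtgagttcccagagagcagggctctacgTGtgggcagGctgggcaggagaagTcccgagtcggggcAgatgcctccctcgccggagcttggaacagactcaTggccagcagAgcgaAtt

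Each look-alike matched the first 257 bases of Rpph1 with 236 bases and held the repeated unit once, so that 21 bases were missing. Rprl3 was the nearest to Rpph1, with 15 substitutions (93.6% identity over aligned bases), followed by Rprl2 with 16 (93.2%) and Rprl1 with 21 (91.1%). Among themselves, Rprl1 and Rprl2 had 90.3% identity over 290 bases, and each had 92.1% identity to Rprl3. The similarity ended at base 257 of Rpph1, leaving out its last 62 bases. Upstream, compared position by position without gaps, 24% to 27% of the 100 preceding bases were the same as before Rpph1. Similarity shifted by a gap was not sought there. The lengths implied by the deposited TPM, 238 bases for Rprl1 and Rprl2 and 237 for Rprl3, show that the features the authors counted covered little beyond the RNase P part. The longest stretch without a difference from Rpph1 was 27 bases in Rprl1, 32 in Rprl2 and 37 in Rprl3, and any window of 150 aligned bases, the read length in the labels, held at least 9 differences. A search of the genome found no further place with at least 150 aligned bases at 85% identity or more to any of the 6 RNAs. Identity in this search counts gaps as differences, unlike the values above. Rpph1 and Rprl1 each had 3 matches at the 6 loci, where Rprl2 and Rprl3 each had 4. These limits can therefore miss a relative.

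**Figure D1:**
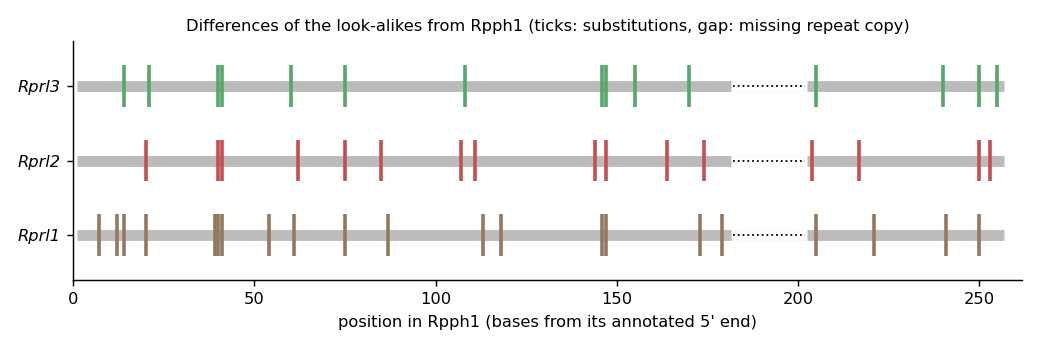
Differences of Rprl1, Rprl2 and Rprl3 from Rpph1. The horizontal axis is the position in Rpph1 in bases from its annotated 5′ end, grey bars are aligned sequence, coloured ticks are substitutions, and the dotted gap is the copy of the repeat that the look-alikes lack. Substitutions are spread along the whole aligned part, 15 in Rprl3, 16 in Rprl2 and 21 in Rprl1.

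The catalytic RNAs came first and second among all genes in each of the 8 ribodepleted libraries. Rpph1 was deposited at 72952 and 74524 TPM in WT at 0 h, 82174 and 82652 in WT at 4 h, 63462 and 65861 in TKO at 0 h, and 72957 and 76939 in TKO at 4 h. TPM divides reads by the length of a gene, and ranks and ratios between genes rest on this division. The study selected fragments by size before sequencing, and whether short RNAs were recovered as well as long ones was not tested. The WT 4 h libraries were the highest and the TKO 0 h libraries the lowest, while the WT 0 h and TKO 4 h libraries overlapped.

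Rmrp (chr4:43505660-43505930, minus strand, between Sit1 and Ccdc107) was at 56264 and 59613 TPM in WT at 0 h, 64906 and 62377 in WT at 4 h, 58399 and 56321 in TKO at 0 h, and 58945 and 60884 in TKO at 4 h. Its 8 values spanned a factor of 1.15 against 1.30 for Rpph1, with the WT 4 h libraries again the highest and the WT 0 h, TKO 0 h and TKO 4 h libraries close together. The annotation puts Rmrp inside Ccdc107 on the opposite strand. Ccdc107 itself was at 8.95 to 15.2 TPM in these libraries, and the strand setting of the counting was not stated. In TPM, Rmrp stood at 0.755 to 0.920 of Rpph1. The most abundant gene outside the set, the translation factor Eef1a1, averaged 11646 TPM.

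Rprl3, the nearest look-alike, was also among the most abundant features, ranked between 5 and 7 of all genes in each ribodepleted library. It was at 4718 and 5225 TPM in WT at 0 h, 5516 and 5435 in WT at 4 h, 4766 and 4843 in TKO at 0 h, and 5435 and 5711 in TKO at 4 h. Values at 4 h exceeded values at 0 h in both genotypes, and the genotypes overlapped at each time in deposited TPM, whereas after scaling by size factors the TKO libraries were the lower at each time. Rprl3 had between 4.72 and 5.11 reads for each 100 reads of Rpph1 in the 4 WT libraries and between 5.36 and 5.48 in the 4 TKO libraries, so that its ratio to Rpph1 was nearly fixed within a genotype. The treatment of reads that match several places was not stated for the counting. Whether reads of Rpph1 entered the level and rank of Rprl3 was not tested.

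Rprl2 was far lower than Rprl3. It was at 49.9 and 44.5 TPM in WT at 0 h, 55.3 and 69.1 in WT at 4 h, 28.3 and 35.9 in TKO at 0 h, and 37.6 and 36.4 in TKO at 4 h. Every WT library exceeded every TKO library, on 153 to 239 reads in WT and 101 to 117 in TKO.

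Rprl1 varied most. Its highest ribodepleted value was 56.8 times its lowest, against 2.44 times for Rprl2 and at most 1.43 times for the other 4. It was at 0.601 and 0.582 TPM in WT at 0 h, 1.40 and 1.73 in WT at 4 h, 24.4 and 33.0 in TKO at 0 h, and 31.5 and 29.3 in TKO at 4 h. These values stand for 2 reads in each WT library at 0 h (95% exact Poisson interval 0.242 to 7.22 reads, counting error only), 5 and 6 reads in WT at 4 h, and between 87 and 104 reads in each TKO library. The genotypes were far apart in every library, and the WT level was close to the limit of detection.

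Terc, the telomerase RNA (chr3:96218360-96218782, minus strand, overlapping no other annotated gene), is shown by the start of its annotated sequence in NCBIM37, with the letters of the telomere template (ctaaccct, found once, bases 29 to 36) in capitals.
Terc: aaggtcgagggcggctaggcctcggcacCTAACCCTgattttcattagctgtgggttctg

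Terc was at 324 and 425 TPM in WT at 0 h, 463 and 431 in WT at 4 h, 428 and 425 in TKO at 0 h, and 423 and 449 in TKO at 4 h, on 1799 to 2749 reads. The first WT library at 0 h stood below the other 7, which lay between 423 and 463 TPM. In the order of group means (447 TPM in WT at 4 h, 436 in TKO at 4 h, 426 in TKO at 0 h and 374 in WT at 0 h), neighbours overlapped at every step but the last, where the nearest libraries of the groups both rounded to 425 TPM. After scaling by size factors that pair overlapped too, at 391 and 397 in TKO and 314 and 428 in WT at 0 h.

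**Figure D2:**
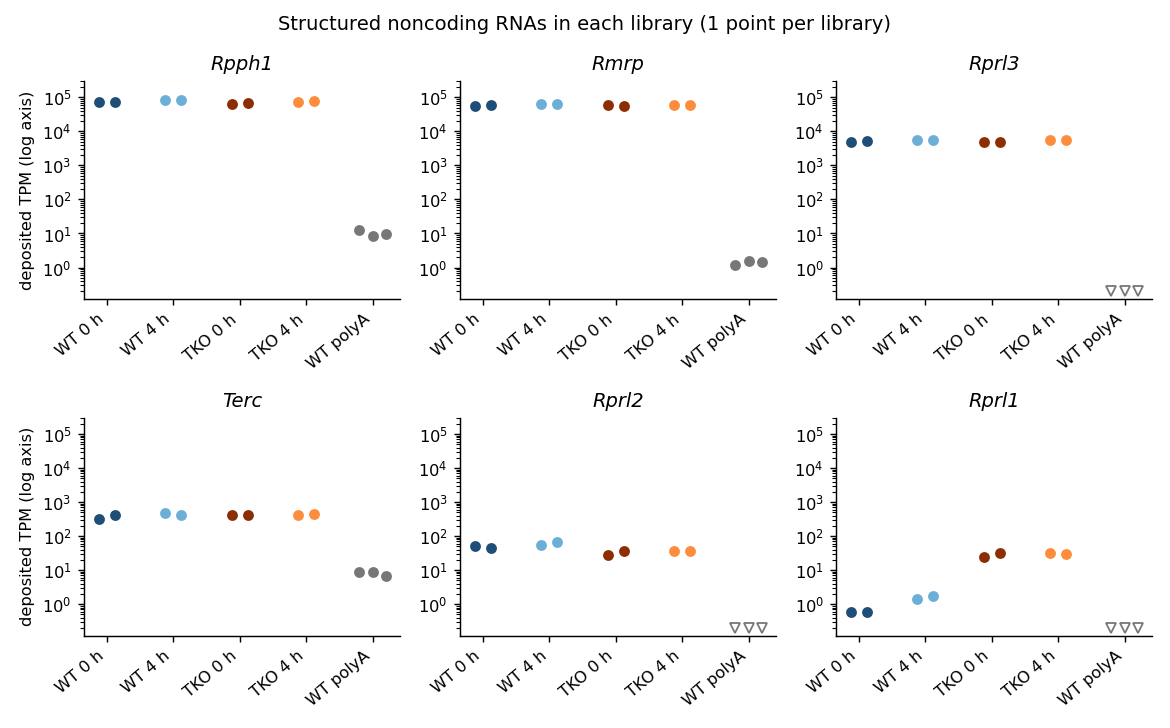
Deposited TPM of the 6 RNAs in each of the 11 libraries, on a log axis, with 1 point per library. Open triangles at the foot of an axis are libraries listed at 0. Rpph1 and Rmrp lie at 56264 TPM or above in all ribodepleted libraries, Rprl1 lies between 0.582 and 1.73 TPM in WT and between 24.4 and 33.0 TPM in TKO, and all 6 are at 13.0 TPM or below in the polyA libraries.

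The share of library TPM taken by the 6 RNAs is a description, since it was in view when they were chosen. It was 13.7% ± 0.391 in WT at 0 h, 15.2% ± 0.152 in WT at 4 h, 12.7% ± 0.0290 in TKO at 0 h and 14.1% ± 0.440 in TKO at 4 h (SD, n = 2 each). Rpph1 and Rmrp made up between 95.7% and 96.2% of that share. The groups were ordered as for Rpph1: the share was higher at 4 h than at 0 h in each genotype, and higher in WT than in TKO at each time, with no overlap of libraries in these 4 pairs. In reads, which are not divided by length, the same RNAs took only 1.91% to 2.49% of each ribodepleted library (in the first WT library at 0 h, 2.06% with a 95% Wilson interval of 2.055% to 2.065%). Since TPM of a library sums to a fixed total, the other genes were left with between 84.7% and 87.3% of it.

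**Figure D3:**
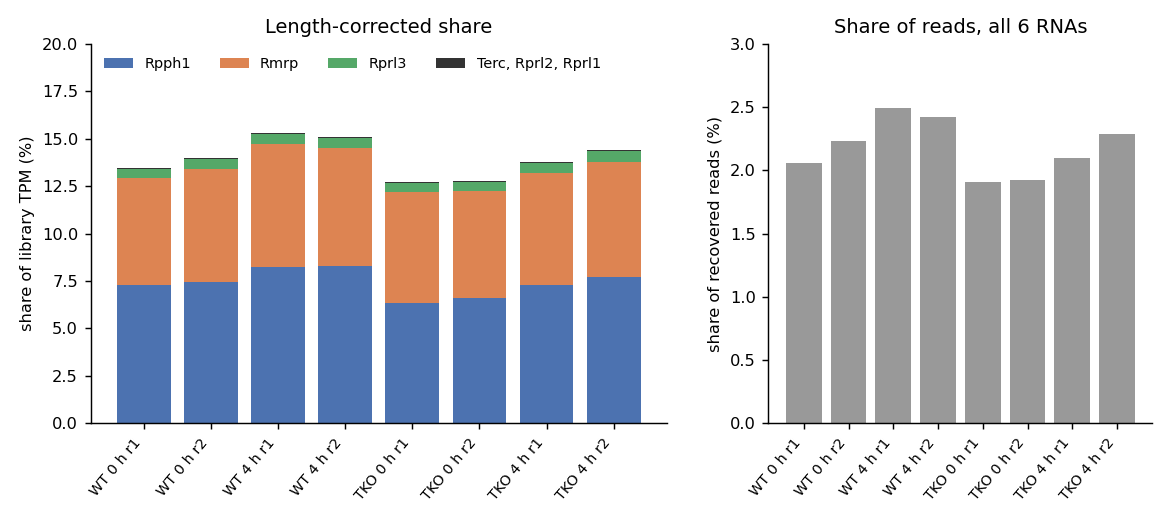
Left, share of library TPM in percent taken by Rpph1, Rmrp, Rprl3 and the other 3 RNAs together, stacked for each of the 8 ribodepleted libraries. Right, share of recovered reads in percent taken by all 6. The TPM share runs from 12.7% to 15.3% and the read share from 1.91% to 2.49%.

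In polyA-selected RNA the set was almost absent. This comparison too is a description, because it was in view at the choice and because RNA selection and sequencing experiment differ together between the 2 kinds of library. Rpph1 was at 13.0, 8.30 and 9.52 TPM in the 3 polyA libraries, 7189-fold below its mean in the WT ribodepleted libraries at 0 h. Rmrp was at 1.21, 1.60 and 1.49 TPM on 12 to 17 reads, 40384-fold below. Terc was at 8.65, 9.08 and 6.94 TPM, which was only 45.5-fold below, so that in polyA RNA it reached nearly the level of Rpph1 although it lay far under it in ribodepleted RNA. Ccdc107, inside which Rmrp is annotated, was at 22 to 26.4 TPM in the polyA libraries. Since the strand setting was not stated, the Rmrp reads there may include reads of Ccdc107, which was not tested. Rprl1, Rprl2 and Rprl3 had 0 reads in all 3 polyA libraries. A floor of 3 reads per library corresponds to 0.351 TPM for Rprl3 and 0.349 TPM for Rprl2, which puts Rprl3 at least 14181-fold and Rprl2 at least 135-fold higher in ribodepleted RNA. For Rprl1, with 2 reads in each ribodepleted WT library at 0 h, no fold can be given. Across the polyA libraries the 6 RNAs together took between 0.00180% and 0.00228% of the TPM.

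The α-amanitin treatment was part of the study's question of how hydroxymethylation of RNA bears on transcript stability, with transcription blocked in cells with and without Tet proteins. All 6 RNAs had a higher scaled level at 4 h than at 0 h in both genotypes, with log2 changes of 0.30 to 0.78 in WT (median 0.37) and 0.13 to 0.31 in TKO (median 0.25). The median change of all 12467 tested genes was 0.028 in WT and 0.013 in TKO, and 54.1% and 53.6% of them had a positive change. Size factors hold this median near 0 by construction. In deposited TPM without size factors the median was -0.11 in WT and -0.074 in TKO. The 6 RNAs then changed by 0.14 to 0.69 in WT and by 0.031 to 0.21 in TKO. Changes are given on the scale log2(scaled TPM + 1), on which TPM was divided by size factors, and were tested with limma across all tested genes. A gene was called at an adjusted p (Benjamini-Hochberg) under 0.05 and a change over 1.5-fold. All these values are relative within a library, and a loss of other RNAs cannot be told apart from a rise of these RNAs. Neither RNA per cell nor the number of cells can be read from them.

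In WT, 1 of the 6 RNAs was called higher and 0 lower, where 0.0882% of all tested genes were called higher and 2.01% lower. This was Rprl1 (log2 change 0.78, SE 0.12, limma adjusted p = 0.00600), but the change rests on 4 reads at 0 h and 11 at 4 h over both libraries, a ratio of 2.74 with a 95% counting interval of 0.812 to 11.8. The call was lost with a pseudocount of 5 TPM (limma adjusted p = 0.0566) and with limma voom on recovered reads (adjusted p = 0.0676). Without the limit on fold, Rprl2, Rprl3 and Terc also passed in WT, which makes 4 of 6, while 21.9% of all tested genes passed in that direction. Rprl2 rose by 0.54 (SE 0.11, limma adjusted p = 0.00960), Terc by 0.43 (SE 0.13, adjusted p = 0.0311) and Rprl3 by 0.30 (SE 0.10, adjusted p = 0.0437). The changes of Terc and Rprl3 leaned on the first WT library at 0 h: without it they were 0.20 for both, with limma adjusted p-values of 0.154 for Terc and 0.258 for Rprl3. Both also missed the threshold with deposited TPM (0.0790 and 0.0677) and in some other fits that left out 1 library, and Rprl3 missed it when the replicate number was fitted as a block (0.0599). Rprl2 passed in all of these.

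Rpph1 changed by 0.32 (95% interval -0.17 to 0.81, limma adjusted p = 0.266) and Rmrp by 0.30 (-0.16 to 0.75, adjusted p = 0.271) in WT. Neither passed, although their libraries did not overlap between the times. Their standard errors, 0.22 and 0.20, come largely from the variance that limma's trend assigns to the most abundant genes. Without that trend the standard errors were 0.069 and 0.076 and the adjusted p-values 0.0215 and 0.0298, and limma voom on recovered reads gave 0.000433 and 0.000985.

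In TKO, 0 of the 6 RNAs were called, and 0% of all tested genes were called higher and 0.16% lower. By limma, Rpph1 changed by 0.31 and Rprl3 by 0.31, as in WT, Rprl2 by 0.30, Rprl1 by 0.19, Rmrp by 0.16 and Terc by 0.13, with adjusted p-values between 0.135 and 0.636. Before adjustment, limma gave 2 of the 6 a p under 0.05 (Rprl2 and Rprl3). Limma voom on recovered reads gave adjusted p-values of 0.00541 for Rpph1 and 0.0106 for Rprl3. The difference between the 2 responses, TKO minus WT, was called for 0 of the 6 and for 0% of all tested genes in either direction. For Rprl1 it was -0.59 (95% interval -1.0 to -0.19, unadjusted p = 0.00870, adjusted p = 0.662 by limma), on the few WT reads given above. That value moved with the pseudocount, to -1.22 at 0.1 TPM and -0.11 at 5 TPM, and was -1.16 with limma voom. For the other 5 it lay between -0.30 and 0.01.

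**Figure D4:**
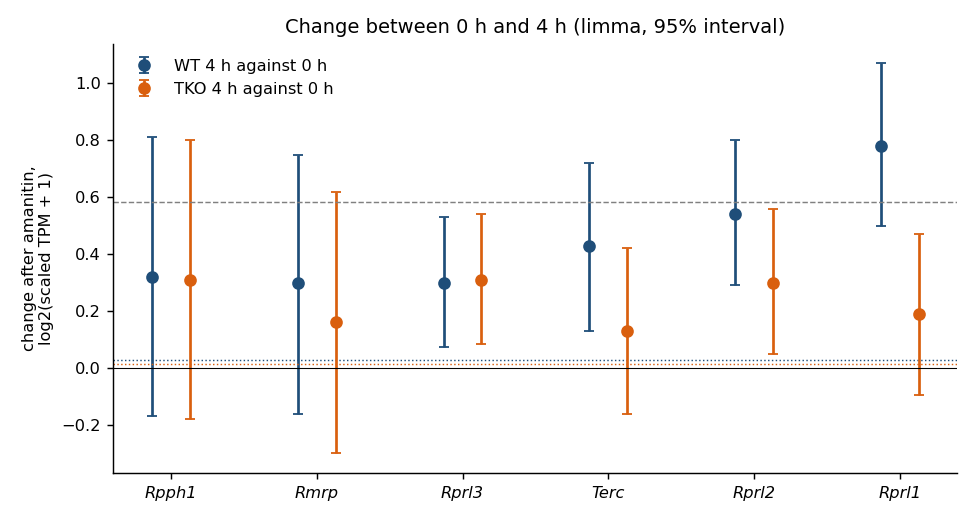
Change of each RNA between 0 h and 4 h of α-amanitin in WT (blue) and TKO (orange), on the log2(scaled TPM + 1) scale. Points are limma estimates from 2 against 2 libraries, bars are 95% intervals, dotted lines are the medians of all tested genes (0.028 and 0.013) and the dashed line is a 1.5-fold change. All 12 estimates are above 0, and only Rprl1 in WT lies above the dashed line.

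Changes of other genes were also read by feature length. The 340 other tested genes whose implied length was under 200 bases had a median change of -0.58 in WT and -0.34 in TKO, and 58 of them had a positive change in WT. The 93 other tested genes of between 200 and 450 bases, the range that holds the 6 RNAs, had a median of 0.013 in WT and 0.064 in TKO. Genes share libraries and are not replicates, so these medians carry no test.

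Without treatment, TKO against WT is a description for the 6 RNAs. On the log2 scale at 0 h, Rprl1 differed by 4.10, Rprl2 by -0.64, Rpph1 by -0.29, Rprl3 by -0.14, Rmrp by -0.11 and Terc by 0.10. The added pseudocount understates the difference of Rprl1, which had 191 reads in TKO and 4 in WT over 2 libraries each, a ratio of 46.5 after division by library reads (95% counting interval 17.9 to 172). The difference between the genotypes at 4 h was not itself among the values in view and was tested. It repeats the 0 h difference, which was in view, in other libraries of the same cells. For none of the 6 RNAs is this test therefore independent of the choice. The tests after α-amanitin and of the difference between the 2 responses use the 0 h libraries whose values were in view, and share this limit. For Rpph1 and Rmrp, the 4 h libraries also entered the share of library signal that was in view. At 4 h, Rprl1 was higher in TKO by 3.51 (SE 0.12, limma adjusted p = 2.67e-07) and Rprl2 differed by -0.88 (SE 0.11, limma adjusted p = 0.000197). That makes 1 of 6 called higher and 1 of 6 called lower, against a background of 11% higher and 5.82% lower among all tested genes. Both calls held under every alternative setting tried.

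In reads, Rprl1 at 4 h had 192 in TKO against 11 in WT over 2 libraries each, a ratio of 18.7 after division by library reads (95% counting interval 10.2 to 38.1). Rprl2 had 234 against 436, a ratio of 0.576 (0.489 to 0.676). At 0 h the sum of the 2 look-alikes was lower in WT, at 168 and 155 reads, than in TKO, at 188 and 217 reads. At 4 h the sums overlapped, with 202 and 245 reads in WT and 215 and 211 in TKO. Rprl1 made up between 1.19% and 2.48% of that sum in WT and between 44.5% and 47.9% in TKO. How the counting treated reads that match more than 1 place was not stated, and its part in these values was not tested.

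**Figure D5:**
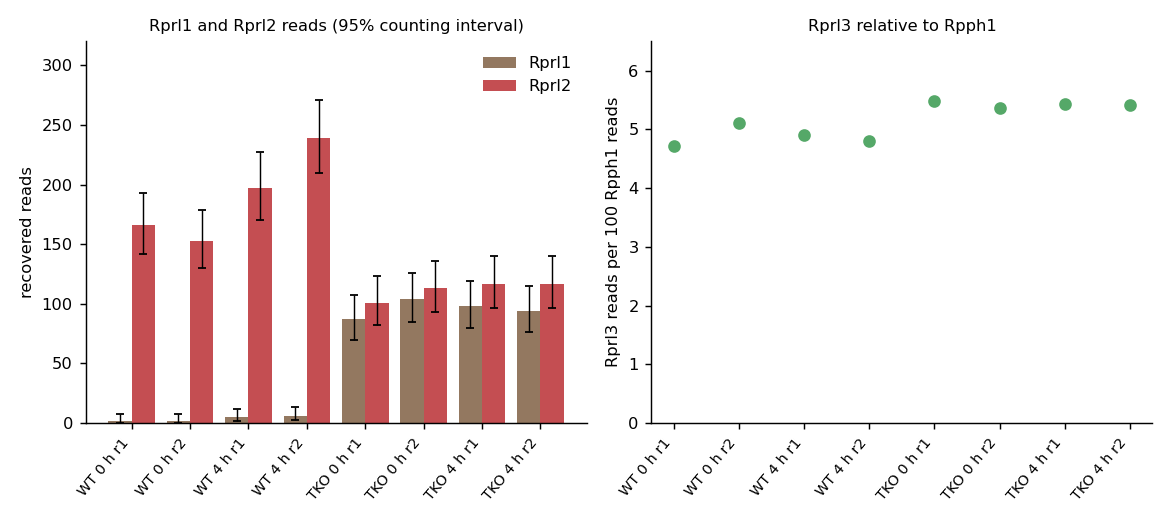
Left, recovered reads of Rprl1 and Rprl2 in each ribodepleted library, with bars for the 95% exact Poisson interval of the count. Right, Rprl3 reads per 100 Rpph1 reads in the same libraries. Rprl1 has 2 to 6 reads in WT and 87 to 104 in TKO, and the Rprl3 ratio stays between 4.72 and 5.48.

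The other 4 RNAs were not called between the genotypes at 4 h. Rpph1 differed by -0.30 (95% interval -0.79 to 0.20, limma adjusted p = 0.265), Rmrp by -0.24 (-0.70 to 0.21, adjusted p = 0.320), Terc by -0.19 (-0.48 to 0.098, adjusted p = 0.223) and Rprl3 by -0.13 (-0.36 to 0.095, adjusted p = 0.279). Without the variance trend the adjusted p was 0.00876 for Rpph1 and 0.0280 for Rmrp, and with limma voom 0.000162 and 0.00150, with the same estimates under the limit on fold.

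Genes whose pattern over the 8 ribodepleted libraries was most like that of a member were sought where the 4 group means spanned more than 1 on the log2 scale, which held for Rprl1 (4.29) and Rprl2 (1.18). By the root mean square difference of values centred on their mean, those nearest to Rprl1 were Ipp (0.256), Smtnl1 (0.262) and Krt7 (0.352). Ipp averaged 5.24 TPM in untreated WT cells against 94.0 TPM in untreated TKO cells. Those nearest to Rprl2 were Qdpr (0.133), Mia1 (0.134) and Usp11 (0.138). Qdpr, which encodes dihydropteridine reductase, averaged 107 TPM in untreated WT cells against 67.0 TPM in untreated TKO cells.

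The proteins that bind or make these RNAs were examined next. Of 10 RNase P and MRP protein subunits tested, 2 were called lower in WT after α-amanitin (2.01% of all tested genes were), 0 in TKO, and 0 between the genotypes at either time. Rpp38 fell from 30.7 ± 1.44 to 17.3 ± 2.04 TPM (SD, n = 2; log2 change -0.65, limma adjusted p = 0.00585) and Pop7 from 46.1 ± 2.23 to 26.8 ± 0.713 TPM (log2 change -0.60, adjusted p = 0.00267). The most abundant subunits, Pop4, Pop1 and Pop5, averaged 91.7, 91.4 and 68.6 TPM and were not called. Limma voom called 1 further gene of the 10, Rpp40, between the genotypes at 4 h, a gene named after its values were seen.

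Telomerase proteins and the H/ACA particle, which binds the 3′ end of Terc, gave 2 calls among 10 genes, both lower in TKO at 0 h and at 4 h. At 0 h the background among all tested genes was 10.5% higher and 5.43% lower. Nop10, a core H/ACA protein, averaged 309 ± 14.5 TPM in untreated WT cells against 211 ± 3.70 TPM in untreated TKO cells (SD, n = 2; log2 change -0.64, limma adjusted p = 0.000113), and differed by -0.74 at 4 h (adjusted p = 4.55e-05). Shq1, an assembly factor of the particle, differed by -0.62 at 0 h (limma adjusted p = 5.33e-05) and by -0.69 at 4 h. The pseudouridine synthase Dkc1 and Nhp2, at means of 230 and 474 TPM, were not called.

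Of 13 RNA polymerase III subunits, 1 was called. Polr3gl, which takes the place of Polr3g in one form of the enzyme, averaged 12.7 ± 1.14 TPM in untreated WT cells against 4.37 ± 0.530 TPM in untreated TKO cells (SD, n = 2; log2 change -1.42, limma adjusted p = 8.22e-06) and differed by -1.74 at 4 h (adjusted p = 2.88e-06). Polr3g was at a mean of 79.9 TPM and was not called, nor were Polr1c (280 TPM) and Polr1d (109 TPM), which polymerase III shares with polymerase I. None of the 18 initiation factors, with Gtf3a, Gtf3c3 and Gtf3c2 the most abundant at 85.7, 76.0 and 69.7 TPM, was called in any of the 5 contrasts by limma. The 7 genes of the 7SK particle and P-TEFb, led by Larp7, Ccnt2 and Ccnt1 at 96.3, 74.1 and 54.8 TPM, and the Y RNA binding proteins Ssb and Trove2 at 238 and 17.6 TPM, also gave 0 calls by limma. Limma voom gave 0 calls in these 3 lists as well, while at an unadjusted limma p under 0.05 in at least 1 contrast there were 17 initiation factors, 7 genes of the 7SK and P-TEFb list and 1 Y RNA binding protein. With no limit on fold, 56 distinct genes of these lists, the structured RNAs that follow included, passed in at least 1 contrast in place of 8. That is 84.8% and 12.1% of the 66 tested, beside 77.5% and 20.9% of all tested genes.

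Other structured RNAs served as a comparison, with 6 of 10 named tested. Rnu11 and Rnu12, the U11 and U12 RNAs of the minor spliceosome, are products of RNA polymerase II. Rnu11 fell from 116 ± 2.92 to 53.4 ± 0.666 TPM in WT after α-amanitin (SD, n = 2; log2 change -0.95, limma adjusted p = 0.00278), and Rnu12 went from 119 ± 19.2 to 76.6 ± 4.48 TPM and was not called (log2 change -0.46). Rnu73b, of 71 bases, also fell in WT (log2 change -0.87, limma adjusted p = 0.00533). Rnu11 (108 bases), Rnu12 (150 bases) and Rnu73b belong to the class under 200 bases, whose median change in WT was -0.58. The part of length or of the polymerase in these changes was not tested. Vaultrc5, a vault RNA made by polymerase III, changed by 0.095 after α-amanitin in WT (limma adjusted p = 0.420) and was lower in TKO than in WT, at 29.1 ± 3.96 against 45.8 ± 0.0222 TPM at 0 h (log2 change -0.73, adjusted p = 0.000160) and by -0.71 at 4 h. Rn45s, the precursor of ribosomal RNA made by polymerase I, was at a mean of 146 TPM and changed by 0.37 in WT without being called, although the authors removed reads that match ribosomal RNA before counting.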

How the data were processed

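The deposited files hold 1 TPM value per gene and library, which the authors computed from HTSeq counts after removing ribosomal and transfer RNA reads with Bowtie2, trimming with Trimmomatic and aligning with STAR to mm9 with RefSeq genes; versions and strand setting are not given in the sources used here. The members and gene lists were chosen with earlier results of these data known. Deposited TPM lay on steps of whole reads, and reads were recovered for 100% of genes (tolerance 1e-06). They served to describe depth and as input to limma voom. That fit and the share of reads were added once the data had been seen. Implied lengths were set on miRNA hairpins, of which 68 of 69 came within 1% of RefSeq.

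TPM of the 8 ribodepleted libraries was divided by median-of-ratios size factors (0.891 to 1.09). limma 3.58.1 (R 4.3.3) was run on log2(scaled TPM + 1) (eBayes with a trend, 4 group means, no block) for genes with a mean above 1 (12467). p-values are two-sided, adjusted over all tested genes. The study used DESeq2 on counts, so its calls are not equivalent. An exact permutation test of 2 against 2 cannot go below 0.333 and was not used. The fit was also run on simulated counts with the same spread setting for all genes, and no result here rests on that run. Replicates differed by more than sampling noise (chi-square per degree of freedom 1.53 to 10.6). Alternatives were other scalings and filters, 0.1 or 5 TPM as pseudocount, a replicate block, no variance trend, no limit on fold and leaving out each library, which leaves 1 library in its group, assumed to vary like the others. Intervals on reads cover counting error only. Named genes were all members, for each list the 3 most abundant and up to 5 called genes, and the 3 genes most like each member whose group means spanned over 1. Alignments used Biopython 1.88 and BLAST on NCBIM37, and the RefSeq names of neighbours came from GRCm38.p6.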

Additional observations from a re-analysis of the deposited data

How the results depend on the processing

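The number of members called in WT after α-amanitin was 1 as reported, 0 with a pseudocount of 5 TPM or limma voom on recovered reads, and 4 with no limit on fold. Leaving out 1 library at a time gave 1 to 2. The second member was Rprl2 without WT 0 h replicate 1 (log2 change 0.59) or WT 4 h replicate 1 (0.69), and Terc without WT 0 h replicate 2 (0.65). The count stayed at 0 in TKO and for the interaction and at 2 between genotypes at 4 h under each alternative. The number of partner genes called rose from 8 to 56 with no limit on fold. The share of TPM became, in recovered reads, 2.14% in WT at 0 h, 2.46% in WT at 4 h, 1.91% in TKO at 0 h, 2.20% in TKO at 4 h and 0.000349% in polyA RNA.

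Signs turned only for values that were not called. For Rpph1 the interaction of -0.0099 became 0.052 with deposited TPM and 0.050 with the members left out of the total, and ranged from -0.092 to 0.078 on leaving out 1 library. For Rprl3 the interaction of 0.010 ranged from -0.091 to 0.11. For Rprl1 the TKO response ranged from -0.015 to 0.39. At 4 h, TKO against WT became 0.025, 0.0064 and 0.038 for Rprl3 with deposited TPM, with the members left out and after quantile normalisation, and 0.034 for Terc after quantile normalisation. Quantile normalisation gives Rpph1 and Rmrp the same value in each library by construction, since they hold the top ranks, and their change is then 0. Deposited TPM without size factors moved the median change of all genes in WT from 0.028 to -0.11 and at 4 h between genotypes from -0.0051 to 0.14. Of 456 recomputed single values, 435 kept direction and side of the combined limit on adjusted p and fold. A value under the limit on fold can count as kept while its adjusted p moves across 0.05. For Rpph1 in WT after α-amanitin the adjusted p was 0.266 by limma as reported and 0.000433 by limma voom. For Rprl3 it was 0.0437 by limma as reported and 0.573 by limma after quantile normalisation.

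Equal replicate numbers did not pair the libraries (correlations of deviations -0.044 to 0.12). In the fit with a replicate block, the counts of members called were unchanged, and the adjusted p of Rprl1 in WT was 0.00714. Depth limits Rprl1 in WT, with 2 to 6 reads per library.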
